A study of Mus musculus with 6 samples.

Results

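The genes described here are 10 markers of resident lung fibroblasts among the 19865 gene symbols in the count tables. They were taken by symbol from a fixed list that was chosen with earlier results of these data known. Tcf21, Pparg, Npnt, Inmt, Gpc3 and Mfap4 mark alveolar fibroblasts, and Pi16, Dpt, Cd34 and Ly6a mark adventitial fibroblasts. All 10 symbols were matched. Their expression was compared between 3 trSrebf1 and 3 control libraries.

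Both groups began as primary fibroblasts from lungs of Col1a2-GFP transgenic mice on the C57BL/6 strain, in which green fluorescent protein is driven by the promoter of the collagen gene Col1a2. In the trSrebf1 group the cells carried a retrovirus for the active form of Srebf1c, a transcription factor of lipid synthesis, and in the control group the cells carried the control vector. The surface marker hLNGFR tagged transduced cells. Both kinds of cell were placed in the trachea of C57BL/6 mice 5 days after 2 mg/kg bleomycin, which injures the lung. Doxycycline, given on day 7 and recorded for the libraries of both groups, induced the transgene. On day 10 living GFP-positive and hLNGFR-positive cells that lacked CD45, CD31, EpCAM, CD146 and Ter119 were sorted, and polyA RNA of 10000 cells was read near its 3' end by 3'SAGE-seq. No label gives the age of the mice, any pooling of animals or the culture behind each replicate, so the p-values rest on a spread among libraries that may be technical only.

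Alveolar fibroblasts lie in the walls of the gas exchange sacs, hold lipid droplets in rodents and support the epithelium. Tcf21 is a helix-loop-helix transcription factor of this lineage, and Pparg is the nuclear receptor that drives lipid storage genes in fat cells and lipid-rich fibroblasts. Adventitial fibroblasts sheathe large vessels and airways, and Pi16, Dpt, Cd34 and Ly6a are found on similar cells in many organs. Both populations are known to lose part of these markers when fibroblasts become activated in injured lung. Since the RNA was taken from bulk cells, fewer cells of a type and less RNA per cell cannot be told apart.

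Totals ran from 3675146 to 4688196 counts per library. Of the 10194 tested genes, 3083 were called in either direction (30.2%), with 17.2% higher and 13.0% lower in trSrebf1 cells at an adjusted p under 0.05. Levels below are CPM, the usual depth-scaled tag count, taken over the library total times its TMM factor. The targeted gene Srebf1 had 28.5, 31.1 and 24.5 CPM in trSrebf1 libraries, against 8.35, 5.13 and 7.75 CPM in control libraries. Its groups did not overlap, in the order the labels give, although tags near the 3' end may lie outside the truncated transgene. Exons of Srebf1 also overlap Rai1 on the opposite strand (109 bases) and Mir6922 on the same strand (66 bases). The part of their tags in the value of Srebf1 was not tested. The rise of Srebf1 was 1.98 on the log2 scale (SE 0.23, adjusted p = 2.88e-06). The 2 general fibroblast genes of highest mean CPM were abundant in both groups. Vim, an intermediate filament gene, averaged 11081 CPM in trSrebf1 and 16930 CPM in control libraries, and Sparc, a matrix gene, 33159 and 37214 CPM. The lowest was the receptor gene Pdgfra, with 3.21, 5.56 and 4.55 CPM in trSrebf1 libraries, against 13.6, 9.75 and 8.45 CPM in control libraries. Pdgfra fell by 1.26 (SE 0.31, adjusted p = 0.00452). Its exons overlap Mir7025 on the same strand (30 bases) and Gm42802 and Gm42803 on the opposite strand (up to 456 bases). The part of those tags in the value of Pdgfra was not tested. Among the 12 general fibroblast genes 8 fell and 0 rose, and the median lay at -0.64 on the log2 scale.

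Of the 10 markers 8 passed the filter on low counts, and 7 of these reached the filter's level of 2.41 CPM in all libraries of both groups. The exception was Pi16, which reached that level in 1 trSrebf1 and 3 control libraries. Dpt, Cd34, Tcf21 and Gpc3 fell in trSrebf1 cells, Mfap4 rose, and Npnt, Pi16 and Ly6a did not pass the test. The 4 lower markers stood against a background of 13.0% of tested genes called lower, and the 1 higher marker against 17.2% called higher. Pparg and Inmt were too low to test. trSrebf1 and control libraries were fully separated for 5 markers, 4 with trSrebf1 below control and 1 above, where 43.3% of all tested genes were so separated, 20.2% below and 23.1% above.

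**Figure D1:**
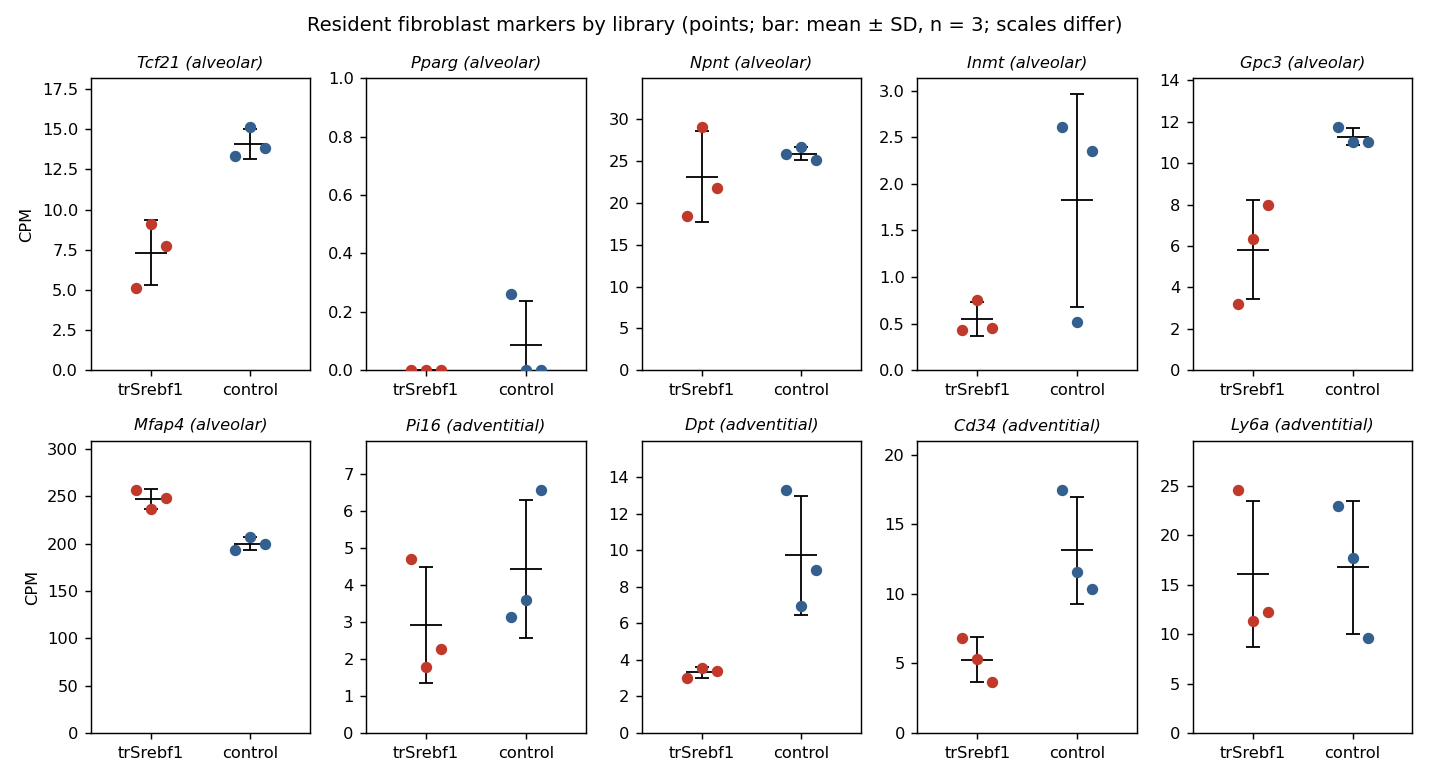
Depth-scaled tag counts (CPM, linear axes from 0 that differ between panels) of the 10 markers in each trSrebf1 and control library. Points are libraries and bars are the mean ± SD (n = 3); the trSrebf1 points of Tcf21, Gpc3, Dpt and Cd34 lie below all control points, those of Mfap4 above, and those of Npnt, Pi16 and Ly6a are mixed with the control points.

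The 4 markers that fell together lie apart in the genome, and the sequence around their annotated starts is shown so that the windows can be compared. Each window runs from 250 bases before to 50 bases after a RefSeq start on build GRCm38.p6 and is written 5' to 3' on the strand of the gene. Capitals mark E-boxes (CANNTG, the element class bound by helix-loop-helix factors, Tcf21 and the SREBP proteins among them) and GC boxes (GGGCGG or its complement, bound by Sp-family factors).
Tcf21, chr10:22820094-22820393, minus strand: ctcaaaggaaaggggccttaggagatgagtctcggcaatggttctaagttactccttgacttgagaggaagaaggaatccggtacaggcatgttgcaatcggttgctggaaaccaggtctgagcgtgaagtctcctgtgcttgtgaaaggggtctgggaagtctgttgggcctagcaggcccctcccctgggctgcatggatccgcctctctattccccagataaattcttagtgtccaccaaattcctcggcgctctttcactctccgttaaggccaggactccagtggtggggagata
Gpc3, chrX:52613925-52614224, minus strand: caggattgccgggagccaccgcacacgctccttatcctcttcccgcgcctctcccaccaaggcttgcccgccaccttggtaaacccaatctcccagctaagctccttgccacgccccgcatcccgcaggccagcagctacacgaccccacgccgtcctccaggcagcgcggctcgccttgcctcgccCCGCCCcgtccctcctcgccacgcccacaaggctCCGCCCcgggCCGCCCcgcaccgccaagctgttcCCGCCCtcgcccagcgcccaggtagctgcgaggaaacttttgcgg
Dpt, chr1:164796413-164796712, plus strand: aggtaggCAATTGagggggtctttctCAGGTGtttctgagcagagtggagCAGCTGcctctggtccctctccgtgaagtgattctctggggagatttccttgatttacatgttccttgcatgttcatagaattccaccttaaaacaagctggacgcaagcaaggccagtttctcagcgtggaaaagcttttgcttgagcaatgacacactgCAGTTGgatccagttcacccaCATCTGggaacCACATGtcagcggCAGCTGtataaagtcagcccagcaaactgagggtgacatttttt
Cd34, chr1:194938571-194938870, plus strand: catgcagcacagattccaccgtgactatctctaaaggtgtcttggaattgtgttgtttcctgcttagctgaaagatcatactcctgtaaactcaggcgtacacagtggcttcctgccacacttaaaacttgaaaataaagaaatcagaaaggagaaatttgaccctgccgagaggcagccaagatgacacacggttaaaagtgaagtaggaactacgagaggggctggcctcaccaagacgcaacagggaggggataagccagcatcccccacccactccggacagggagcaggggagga

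The Dpt window held 7 E-box matches over both strands, 2 of them CAGCTG, while those of Tcf21, Gpc3 and Cd34 held 0. Gpc3 held 4 GC boxes and a GC content of 70.7%, against 53.3% for Tcf21, 48.7% for Dpt and 50.0% for Cd34. Among 32851 promoter windows of the same length 72.3% held an E-box, 16.3% a CAGCTG and 35.7% a GC box, with a median GC content of 52.7%. CAGCTG is itself a form of CANNTG, and so is CACGTG, which was found in 0 of the marker windows and 7.15% of all windows. TATAAA was found once in the Dpt window and in 13.6% of all windows. Windows of markers not called lower in the main fit held such matches too. Npnt held 4 GC boxes in 1 window and 3 E-boxes in the other. Inmt held 2 E-boxes, 1 of them CAGCTG, and 2 TATAAA matches, and Pi16 held 1 E-box, a CAGCTG. The core of the sterol regulatory element, searched as TCACNCCAC on both strands, was found in 1.24% of all windows and in 0 of the 11 windows listed for 8 of the 10 markers. These matches describe letters in short windows and say nothing of binding. Mfap4 and Ly6a were among the markers with no listed window.

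Tcf21 (chromosome 10, 22817281 to 22820174, minus strand, mm10) is the helix-loop-helix regulator among the alveolar markers. It had 5.14, 9.09 and 7.73 CPM in trSrebf1 libraries, against 13.3, 15.1 and 13.8 CPM in control libraries. Every trSrebf1 library lay below every control library, and trSrebf1 replicate 1 was the lowest. Its log2 fold change was -0.95 (SE 0.26, 95% interval -1.50 to -0.40, edgeR adjusted p = 0.00929). It was called under 13 of 14 alternative settings and lost without trSrebf1 replicate 1 (-0.74, adjusted p = 0.0574). The proteins that pair with Tcf21, the E proteins encoded by Tcf3, Tcf4 and Tcf12, had log2 fold changes of -0.49, -0.16 and -0.11 and did not pass the test.

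Pparg (chromosome 6, 115360951 to 115490399, plus strand) was all but undetected. Its counts were 0, 0 and 0 in trSrebf1 libraries, against 1, 0 and 0 in control libraries. The trSrebf1 libraries together allow a level of up to 0.230 CPM (3 counts over the group), which covers counting error only. No fold change is given, since both groups are at or under that floor. This receptor of lipid-storing fibroblasts was thus seen as a single tag in 1 of 6 libraries, while its relative Ppard, which is more widely expressed, rose by 1.24 on the log2 scale (SE 0.12, adjusted p = 3.26e-07). Ppard had 253, 241 and 255 CPM in trSrebf1 libraries, against 122, 103 and 91.8 CPM in control libraries.

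Inmt (chromosome 6, 55170626 to 55175043, minus strand) encodes a methyltransferase of small amines. It had 2, 3 and 2 counts in trSrebf1 libraries, against 10, 2 and 10 in control libraries, and did not pass the filter. Control replicate 2 lay within the range of the trSrebf1 libraries. The ratio of the summed counts, 7 against 22 and scaled for depth, was 0.293 with an exact 95% interval of 0.106 to 0.710 for counting error only. Over libraries the exact two-sided permutation p was 0.2, where 3 against 3 libraries cannot go below 0.1. With no filter the edgeR adjusted p was 0.147. Inmt also entered the test when control replicate 2 or any trSrebf1 replicate was left out. Without control replicate 2, its only low control library, it was called lower (-2.14, SE 0.71, adjusted p = 0.0365), and the other 3 fits gave adjusted p-values of 0.114 to 0.215.

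Gpc3 (chromosome X, 52272426 to 52613950, minus strand) encodes a membrane-anchored heparan sulfate proteoglycan that restrains hedgehog signals in mouse embryos. It had 3.21, 6.32 and 7.96 CPM in trSrebf1 libraries, against 11.7, 11.032 and 11.032 CPM in control libraries. The control libraries were close together and the trSrebf1 libraries spread widely, all below control. On the log2 scale the difference was -0.96 (SE 0.31, 95% interval -1.60 to -0.31, adjusted p = 0.0242). The call was lost without trSrebf1 replicate 1 (-0.65, adjusted p = 0.124) and without control replicate 2 (-0.97, adjusted p = 0.0549). Of the hedgehog genes, the receptor Ptch1 fell by 1.17 (SE 0.24, adjusted p = 0.00128) and its partner Smo by 0.81 (SE 0.25, adjusted p = 0.0213), a pair named after their values were seen. Gli1, the usual readout of the pathway, had a log2 fold change of -0.44 and did not pass (adjusted p = 0.0996), although it passed without trSrebf1 replicate 2 (adjusted p = 0.0476). Smo lost its call when any 1 of control replicate 1, trSrebf1 replicate 2 and trSrebf1 replicate 3 was left out (adjusted p over all alternatives 0.0114 to 0.130).

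Npnt (chromosome 3, 132881745 to 132950291, minus strand) encodes nephronectin, a matrix ligand of the integrin built from the products of Itga8 and Itgb1. It had 18.4, 29.0 and 21.8 CPM in trSrebf1 libraries, against 25.8, 26.7 and 25.1 CPM in control libraries. The groups overlapped, and trSrebf1 replicate 2 was the highest of all 6 libraries. The log2 fold change was -0.17 (95% interval -0.57 to 0.23, adjusted p = 0.557). Its receptor gene Itga8, itself an alveolar fibroblast marker, had 6.21, 12.9 and 13.4 CPM in trSrebf1 libraries, against 44.6, 43.1 and 47.9 CPM in control libraries, and fell by 2.07 (SE 0.23, adjusted p = 1.96e-06). The common subunit gene Itgb1 did not pass (-0.19, adjusted p = 0.147), but was called lower with total counts only (adjusted p = 0.0171). Ligand and receptor were thus measured at different log2 fold changes, a difference that was not tested.

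Mfap4 (chromosome 11, 61485431 to 61488900, plus strand) encodes a glycoprotein of the microfibrils that scaffold elastic fibres. It had 257, 236 and 249 CPM in trSrebf1 libraries, against 193, 207 and 199.7 CPM in control libraries. The groups did not overlap, and the log2 fold change was 0.30 (SE 0.10, 95% interval 0.09 to 0.52, adjusted p = 0.0312). It was positive under all 14 alternatives (0.22 to 0.34) but was called under 5 of them. Settings that lost the call were DESeq2 (adjusted p = 0.0565), upper-quartile factors (0.133), total counts (0.101), no filter (0.0591) and the replicate block (0.0718). Leaving out a library lost it for control replicates 1 (0.0605) and 3 (0.1246) and for trSrebf1 replicates 1 (0.0999) and 3 (0.0798).

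The last 89 exonic bases of Mfap4 (61488812 to 61488900) overlap, tail to tail, the last exonic bases of Mapk7, a kinase gene on the opposite strand. Mapk7 had 226, 232 and 235 CPM in trSrebf1 libraries, against 67.6, 58.0 and 64.5 CPM in control libraries, a log2 fold change of 1.86 (adjusted p = 1.17e-09). The use of strand in counting is not given, so tags of the pair in these bases cannot be told apart. The part of Mapk7 tags in the value of Mfap4 was not tested. The elastic fibre genes Eln and Fbn1, partners of Mfap4, fell by 1.40 (SE 0.14) and 1.11 (SE 0.11), with adjusted p-values of 6.14e-07 and 5.02e-07.

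Dpt (chromosome 1, 164796644 to 164824266, plus strand) had the most negative log2 fold change among the tested markers. It encodes dermatopontin, a small matrix protein that binds decorin and collagen fibrils. It had 2.996, 3.54 and 3.41 CPM in trSrebf1 libraries, against 13.3, 6.93 and 8.92 CPM in control libraries. The trSrebf1 libraries lay close together and below all control libraries, of which replicate 1 was the highest. The log2 fold change was -1.55 (SE 0.33, 95% interval -2.24 to -0.85, adjusted p = 0.00147), and 2.19% of tested genes had a value as low or lower. The call held under all 14 alternatives (-1.74 to -1.26, adjusted p 1.22e-04 to 0.0114). Dcn, the gene of its partner decorin, fell by 1.13 (SE 0.10, adjusted p = 8.36e-08).

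Cd34 (chromosome 1, 194938819 to 194961279, plus strand) encodes a surface sialomucin of adventitial fibroblasts, blood stem cells and endothelium. It had 6.85, 5.30 and 3.64 CPM in trSrebf1 libraries, against 17.5, 11.5 and 10.3 CPM in control libraries. Again the groups did not overlap and control replicate 1 was the highest. The log2 fold change was -1.30 (SE 0.30, 95% interval -1.95 to -0.66, adjusted p = 0.00306), called under all 14 alternatives (-1.55 to -1.04, adjusted p 1.60e-04 to 0.0193). An antisense gene model overlaps 148 exonic bases of Cd34.

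The endothelial defining genes Pecam1 and Cdh5 were at or near 0 in the same libraries, while Kdr was low but present. Pecam1 encodes CD31, which the sorted cells lacked, so the sort itself selected for a low value. Kdr had 0.428, 0.758 and 2.05 CPM in trSrebf1 libraries, against 1.04, 1.54 and 0.704 CPM in control libraries, and was not tested. Pecam1 had 0, 0 and 0 CPM in trSrebf1 and 0, 0 and 0.235 CPM in control libraries, and Cdh5 had 0 in every library but control replicate 1 (0.261 CPM). The 8 matched endothelial symbols of 10 summed to 169 to 181 CPM in trSrebf1 and 194 to 220 CPM in control libraries. Most of that sum was Ecscr (-0.28, adjusted p = 0.0598), which was called lower with upper-quartile factors, with total counts and where genes had to reach 5 CPM in 3 libraries (adjusted p over all alternatives 0.0154 to 0.180). The 1 endothelial gene called, Egfl7, rose by 3.43 (adjusted p = 1.79e-05) but reached the filter's level in 0 control libraries, so it entered the test only through the group where it is high. It also shares 264 exonic bases with Gm20532 and Mir126a on its strand, and its value is uncertain.

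Ly6a (chromosome 15, 74994877 to 74998031, minus strand) encodes Sca-1, a lipid-anchored surface protein of progenitor cells. It had 24.6, 11.4 and 12.3 CPM in trSrebf1 libraries, against 23.0, 17.7 and 9.62 CPM in control libraries. The groups overlapped, with trSrebf1 replicate 1 the highest and control replicate 3 the lowest of all 6 libraries. The log2 fold change was -0.04 (95% interval -0.84 to 0.76, adjusted p = 0.947), and its sign turned when control replicate 1 (0.26), trSrebf1 replicate 2 (0.15) or trSrebf1 replicate 3 (0.13) was left out. Of 852 words of 30 bases from the last 500 bases of Ly6a transcripts, 230 also occur in other genes, 121 of them in Ly6c1, and its tags may be shared. Ly6c1 did not pass the test (0.20, adjusted p = 0.760).

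Pi16 (chromosome 17, 29317680 to 29330593, plus strand), the gene for which the shared adventitial population is named, encodes a peptidase inhibitor. It had 4.71, 1.77 and 2.27 CPM in trSrebf1 libraries, against 3.13, 3.59 and 6.57 CPM in control libraries. The groups overlapped at these low levels. The log2 fold change was -0.59 (95% interval -1.52 to 0.34, adjusted p = 0.355), and alternatives gave -1.12 to -0.20. An antisense model overlaps 222 exonic bases of Pi16.

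**Figure D2:**
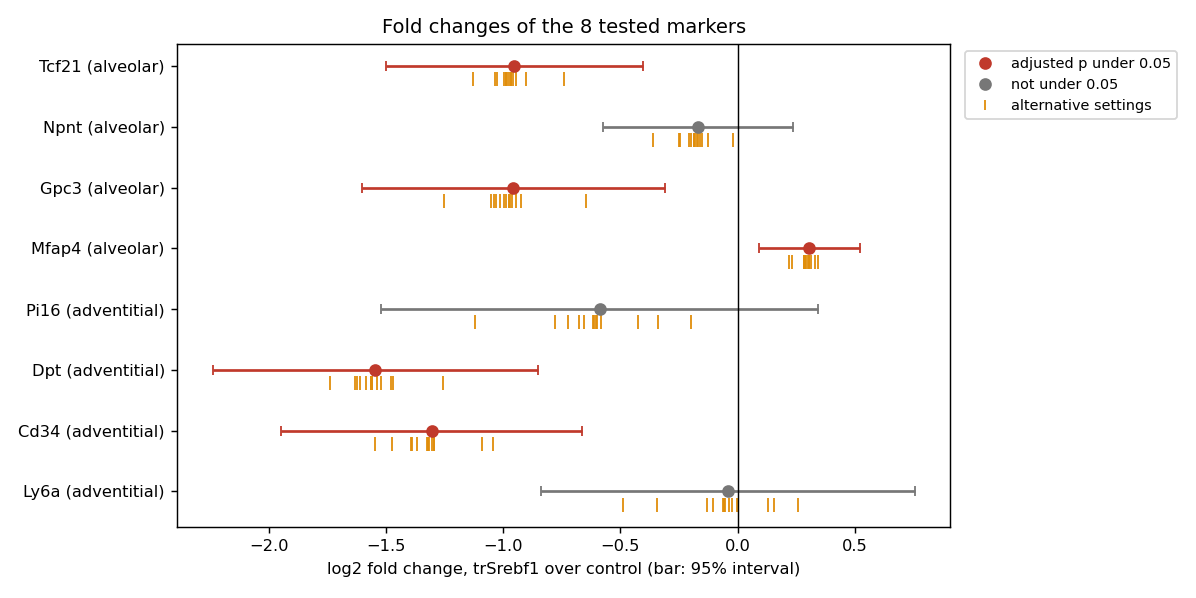
Log2 fold change of trSrebf1 over control (x axis) for the 8 tested markers, with 95% intervals; short ticks below each point are the values under the alternative settings. Intervals of Tcf21, Gpc3, Dpt and Cd34 lie below 0 and that of Mfap4 above 0, while those of Npnt, Pi16 and Ly6a cross 0.

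Between the classes, 2 of 4 tested alveolar markers fell and 1 rose, and 2 of 4 tested adventitial markers fell with 0 higher, beside 13.0% lower and 17.2% higher over all tested genes. The 8 tested markers had a median log2 fold change of -0.77, beside -0.01 over all tested genes and -0.64 over the general fibroblast genes. These medians describe the chosen genes and leave out Pparg and Inmt. Among all tested genes, 2.19% to 7.50% had log2 fold changes as low as those of Dpt, Cd34, Gpc3 and Tcf21.

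**Figure D3:**
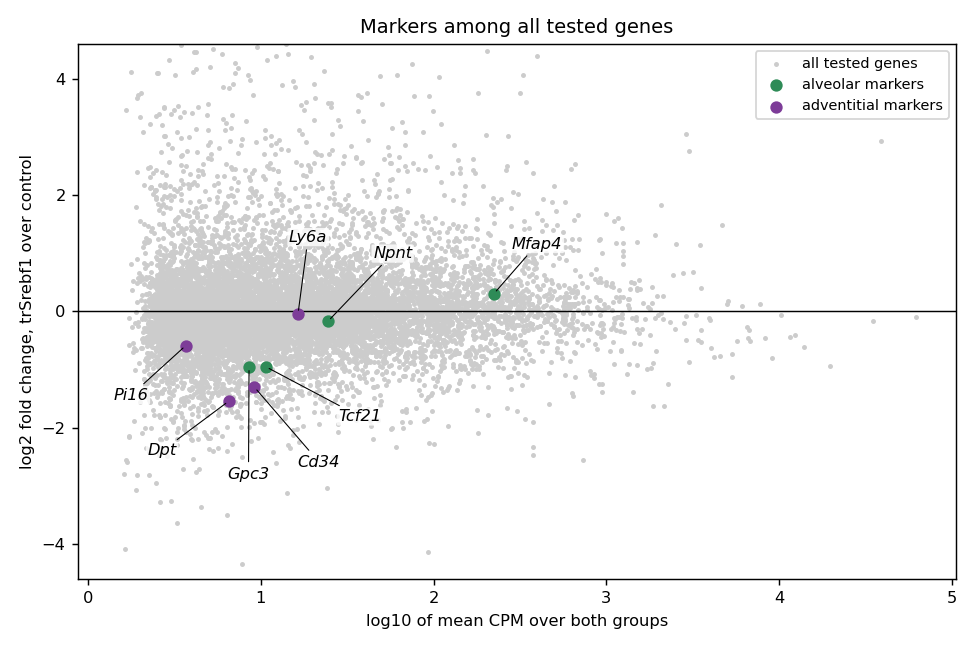
Log2 fold change of trSrebf1 over control (y axis) against the log10 of the mean CPM over both groups (x axis) for all 10194 tested genes in grey, with the 8 tested markers in colour. The axis stops at ±4.6, which leaves 75 genes undrawn; Dpt, Cd34, Tcf21 and Gpc3 sit in the lower part of the cloud and Mfap4 slightly above 0.

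Other published alveolar markers were then counted. This list and those below were also chosen with earlier results of these data known, so their counts describe the chosen genes only. Of 20 symbols (Figf and Vegfd being names of 1 gene) 13 were tested, 8 of which fell and 0 rose, beside 13.0% lower and 17.2% higher over all tested genes. Wnt2, 1 of the 8, reached the filter's level in control libraries only. Their median was -1.20 on the log2 scale. Limch1, an actin-binding protein gene, had 19.3, 21.5 and 19.3 CPM in trSrebf1 libraries, against 142, 90.6 and 69.7 CPM in control libraries, and fell by 2.33 (SE 0.23, adjusted p = 4.48e-06). Itga8, given above, and Gyg, the primer of glycogen synthesis, also fell, Gyg by 1.15 (SE 0.18, adjusted p = 7.69e-05). Lpl, the lipase that feeds lipid storage, did not pass (-0.15, adjusted p = 0.644). Untested alveolar markers were low in both groups, for example Scube2 at 0.428 to 1.14 CPM in trSrebf1 and 0.469 to 1.28 CPM in control libraries. Hsd11b1 was separated, with 0.428, 0.505 and 0.227 CPM in trSrebf1 libraries, against 1.57, 3.85 and 1.41 CPM in control libraries. Enpep overlapped between groups and reached 3.86 CPM in trSrebf1 replicate 3.

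Other adventitial markers moved both ways. Of 20 symbols 11 were tested, with 3 higher, 4 lower and a median of -0.09, beside 17.2% higher and 13.0% lower over all tested genes. Mfap5, a microfibril gene, had 11.3, 6.32 and 9.09 CPM in trSrebf1 libraries, against 36.3, 40.3 and 26.5 CPM in control libraries, and fell by 1.93 (SE 0.23, adjusted p = 5.10e-06). Col14a1, a collagen of the fibril surface, fell by 1.58 (SE 0.25, adjusted p = 1.06e-04). Cygb, a globin of fibroblasts, rose by 1.21 (SE 0.13, adjusted p = 9.14e-07). Named after their values were seen, Anxa3 and Ebf1 were the others that fell and Cd248 and Serpinf1 the others that rose, and the calls of Ebf1 and Serpinf1 were lost under 2 and 4 of the alternatives, with adjusted p-values up to 0.0768 and 0.107. Clec3b, Scara5 and Dpp4, which define the Pi16-positive population in many organs, had at most 1.28 CPM in any library of either group. Has1, Il33, Pcolce2 and Entpd2, also untested, were separated with trSrebf1 below control, at no more than 2.87 CPM in any library. Has1 had 0.856, 0.758 and 1.14 CPM in trSrebf1 libraries, against 2.87, 2.05 and 1.64 CPM in control libraries. The other untested adventitial genes overlapped between groups.

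Transcription factors of lung mesenchyme beside Tcf21 also split, with 4 of 17 tested higher and 4 lower (median -0.08), where 17.2% of all tested genes were higher and 13.0% lower, and nothing particular to these factors is read from the counts. Tbx5, a lung and heart field factor, had 36.2, 36.4 and 27.96 CPM in trSrebf1 libraries, against 8.61, 10.5 and 8.68 CPM in control libraries, a rise of 1.85 (SE 0.20, adjusted p = 1.59e-06). Tbx3 rose by 1.36 (SE 0.14, adjusted p = 7.81e-07) and Hoxb5 by 0.84 (SE 0.15, adjusted p = 3.26e-04). Foxf1, named after its values were seen, was the other that rose, and Gli2, Prrx1, Hoxa5 and Meox2 were those that fell. Without trSrebf1 replicate 3, and under DESeq2, the number of lower factors was 2. The calls of Hoxa5 and Meox2 were lost under 5 and 8 of the alternatives (adjusted p up to 0.105 and 0.232).

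The targets and partners of Pparg were read beside its near absence. Of 17 textbook target symbols 6 were tested, with 1 higher and 1 lower, beside 17.2% higher and 13.0% lower over all tested genes. Plin2, which coats lipid droplets, had 437, 356 and 305 CPM in trSrebf1 libraries, against 103, 97.2 and 97.4 CPM in control libraries, a rise of 1.89 (SE 0.13). Nr1h3, which encodes a sterol-sensing receptor, was lower by the test (-0.41, adjusted p = 0.0464), a call lost under 7 of 14 alternatives (adjusted p 0.0168 to 0.222; each library but control replicate 2 and trSrebf1 replicate 2 lost it when left out), and Cebpa did not pass (0.63, adjusted p = 0.426). Cd36 and Fabp4, a fatty acid transporter and a fatty acid binding protein, had at most 0.783 CPM in any library. Acsl1, also untested, was separated, with 1.71, 0.505 and 1.36 CPM in trSrebf1 libraries, against 2.09, 2.82 and 2.58 CPM in control libraries. The other untested targets overlapped between groups. Among partners and relatives of Pparg 1 of 10 tested genes, Ppard, rose and 0 fell, beside the same shares. The cofactors Med1 and Ncoa1 had log2 fold changes of 0.37 and -0.39 and did not pass (adjusted p 0.11 and 0.149).

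The partners of the other markers fell in 6 of 11 tested genes and rose in 0 (median -0.81), beside 13.0% lower and 17.2% higher over all tested genes. Dcn, Fbn1, Eln, Itga8, Ptch1 and Smo, described with their markers, were those 6. The list of activated and injury fibroblast genes held 6 lower and 3 higher of 15 tested (median -0.28), beside the same shares. Acta2, the smooth muscle actin of myofibroblasts, fell by 1.89 (SE 0.16) and the actin-binding gene Tagln by 1.28 (SE 0.12), while the matrix phosphoprotein gene Spp1 rose by 2.54 (SE 0.12). Named after their values were seen, Sfrp1, Cthrc1, Saa3 and Fst were the others that fell. Lrrc15 (0.77) and Lrrc17 (1.15) were the others that rose. Resident and activated markers were thus both found among the lower genes, and both also among the higher genes. Lists share members (Itga8, Pdgfra, Dcn, Lpl and Gli1 stand in more than 1), and genes that pass the filter through their higher group alone, here Wnt2 and Saa3, had to differ. Genes or gene models on the opposite strand overlap exons of Itga8, Fbn1, Eln, Cygb, Tagln, Tbx3 and Hoxb5. They also overlap exons of other genes named here, such as Pdgfra and Ecscr. Among them are Prcd at Cygb and Pcsk7 at Tagln. Plin2 shares sequence near its 3' end with Gm12551, and Spp1 shares exonic bases with Gm42793 on its strand. Tags of all these genes cannot be assigned with certainty.

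**Figure D4:**
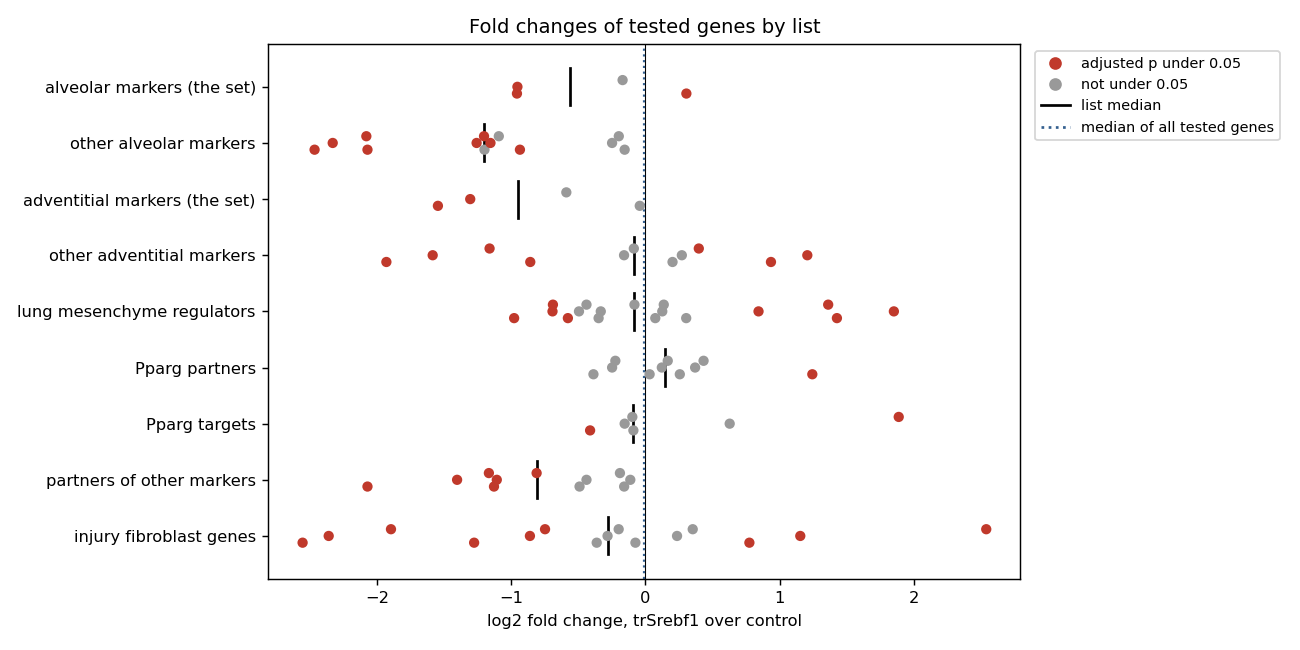
Log2 fold change of trSrebf1 over control (x axis) of each tested gene in the marker classes and in 7 related lists, red where the adjusted p was under 0.05 and grey otherwise; black lines are list medians and the dotted line is the median of all tested genes (-0.01). Other alveolar markers (median -1.20) lie to the left, and lung mesenchyme regulators lie on both sides of 0.

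Other cells that express some of these markers were checked with their own genes, and their part in the results was not tested. Macrophages express Pparg: 7 of 12 symbols matched and summed to 3.21 to 18.6 CPM in trSrebf1 and 7.98 to 47.5 CPM in control libraries. Most of that was C1qa (adjusted p = 0.426), while Lyz2 had at most 1.30 CPM and Cd68 0.77 CPM. Epithelium expresses Npnt: its 10 symbols summed to 8.41 to 24.3 CPM in trSrebf1 and 9.91 to 16.7 CPM in control libraries, with 0 of 2 tested genes called. Under 5 of the alternatives 1 epithelial gene was called higher, but it was not among the 2 genes tested in the main fit. Those 2, the surfactant genes Sftpb and Sftpc, did not pass (adjusted p 0.701 and 0.681), nor under any alternative (smallest adjusted p 0.242 and 0.277). Epcam, whose protein the sorted cells lacked, had at most 0.257 CPM, a low value that the sort selected for. Cdh1, not tested in the main fit, had 2.996, 0.505 and 2.50 CPM in trSrebf1 libraries, against 0, 0.257 and 0 CPM in control libraries. These groups did not overlap. Krt8, also untested, was separated the other way, at no more than 0.770 CPM in any library. Of mesothelial genes 7 of 8 symbols matched and summed to 26.3 to 38.1 CPM in trSrebf1 and 37.3 to 45.8 CPM in control libraries. Upk1b did not pass (0.12, adjusted p = 0.781), Krt19 was lower (-1.16, adjusted p = 0.0317), a call lost on leaving out any library but trSrebf1 replicate 2 (up to 0.0834), and Upk3b had at most 1.17 CPM. Pericyte and smooth muscle genes summed to 220 to 256 CPM in trSrebf1 and 138 to 152 CPM in control libraries, with Cspg4 alone averaging 119.97 CPM in trSrebf1 and 16.3 CPM in control libraries. Of 8 tested, 5 fell and 2 rose, beside 13.0% lower and 17.2% higher over all tested genes. The number lower was 3 without control replicate 1 or trSrebf1 replicate 3. Lmod1, Ndufa4l2, Kcnj8, Abcc9 and Myh11 were lower, Ndufa4l2 with 0 trSrebf1 libraries at the filter's level, and the calls of Abcc9 and Myh11 were lost under 3 and 5 of the alternatives (adjusted p up to 0.121 and 0.202). Those that rose were Cspg4 (2.87, adjusted p = 4.57e-08) and Des (0.49, adjusted p = 0.0106, lost without control replicate 3 or trSrebf1 replicate 3 at up to 0.0630), while Rgs5 had at most 0.257 CPM.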

How the data were processed

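The authors deposited raw tag counts, unnormalized, for each gene symbol in a table for each library, per the file headers. Bowtie2 2.2.5 and mm10 are named without a role per the submitters' processing notes. The sources used here name no counter, annotation or strand setting. Genes were tested over the whole table with edgeR 4.0.16 in R 4.3.3 (TMM factors, filterByExpr with a minimum count of 10 and total of 15, robust glmQLFit, glmQLFTest, group as the only term), and calls were made at a two-sided Benjamini-Hochberg adjusted p under 0.05. The SE is the log2 fold change divided by the square root of F, and 95% intervals use the fit's degrees of freedom. Amplified tags carry no molecular identifiers. Alternatives were DESeq2 1.42.0, limma-voom (limma 3.58.1), upper-quartile factors, total counts, 2 other filters, the table without Ctsd (6.53% to 6.81% of counts in trSrebf1 and 0.860% to 0.953% in control libraries), a replicate block, and each library left out. Within a group, library pairs differed by 4.52 to 8.13 times sampling noise (chi-square per degree of freedom), so none was treated as a copy. Named genes were all 10 markers, Srebf1, the 3 genes of smallest p per related list, and for other cell types and general fibroblast genes the 2 of highest mean CPM. Other list genes in the text, such as those at or near 0, were named after their values were seen. Markers and lists were chosen with earlier results of these data known. Locations and exon overlaps came from GENCODE M21 (mm10) and promoters from RefSeq.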

Additional observations from a re-analysis of the deposited data

How the results depend on the processing

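Of 111 recomputed log2 fold changes of tested markers over 14 alternatives, 96 kept their direction and side of the threshold, 12 lost the call and 3 reversed, all 3 of Ly6a (0.26 without control replicate 1, 0.15 without trSrebf1 replicate 2 and 0.13 without trSrebf1 replicate 3; leaving out 1 library gave -0.49 to 0.26). Dpt, Cd34, Tcf21 and Gpc3 were the markers called lower under 12 of the 14 alternatives; without control replicate 2 Inmt stood in place of Gpc3 among 4, and without trSrebf1 replicate 1 only Dpt and Cd34 were called (2 to 4 on leaving out a library). The number called higher, 1 in all for Mfap4, was 0 under DESeq2, upper-quartile factors, total counts, no filter on low counts and the replicate block, and 0 to 1 on leaving out a library. Whether library numbers shared by the groups pair them is not given by the labels and cannot be told from these few libraries. Deviations of same-numbered libraries correlated at 0.00, -0.12 and -0.06, and those of differently numbered libraries at -0.07 to 0.12. With the replicate block 1646 genes were called higher and 1174 lower, against 1755 and 1328 without it. Mfap4 then had an edgeR adjusted p of 0.0718. Counts over all genes stayed within 1.5 times under all 14 alternatives. Of 364 recomputed list counts 28 moved by 1.5 times or more, and the cause was not tested. Pi16 could not be fitted under the filter of 5 CPM in 3 libraries, which removes it. At this depth Pparg, Inmt and Pi16 are limited by few counts.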
